A study of Drosophila melanogaster with 8 samples.

Results

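Pyruvate, the end product of glycolysis, stands at a branch point between fermentation, respiration and glucose synthesis, and the genes for the enzymes at this point were followed in the fly intestine after dietary N-acetyl-D-glucosamine (GlcNAc). The set was chosen by gene symbol and holds 10 genes, for lactate dehydrogenase, the pyruvate dehydrogenase (PDH) complex and its regulators, the mitochondrial pyruvate carrier, pyruvate carboxylase and phosphoenolpyruvate carboxykinase. Of the 10, 9 were among the 7671 genes of the deposited table. Of these, 8 were found by symbol, and 1, CG5261, was found under its other name, muc, through its gene identifier (FBgn0283658). Pepck, for phosphoenolpyruvate carboxykinase, was not analysed here.

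RNA was sequenced from dissected intestines of mated Drosophila melanogaster females, 7 days old, kept for 24 hours on calorie-restricted food, which is the maintenance diet diluted to 0.25 of its strength. The GlcNAc group received this food supplemented with GlcNAc at 0.1 M, a sugar from which cells can make the donor used for glycosylation, and the control group received it without GlcNAc. The paper gives a genotype for the flies of its food intake test and none in its sequencing methods. That genotype holds UAS-mCD8::GFP and hsFLP, with tub-GAL4 over a wild-type chromosome (+) and FRT82B tub-GAL80 over FRT82B. In such flies a heat shock can induce marked clones. Whether clones were induced in the sequenced flies is not given in the sources used here. Each group had 4 independent samples with 1 library each, and every library is of the whole intestine with all its cell types. How many animals went into a sample is not given in the sources used here. The labels call the treatment glucosamine in 1 field and the source whole larvae, whereas the titles, the tissue field and the protocols give GlcNAc and the adult intestine, which is used here.

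In cells, cytosolic pyruvate can be reduced to lactate by lactate dehydrogenase, which returns NADH to NAD+ and so allows glycolysis to go on. Alternatively it enters mitochondria through the pyruvate carrier of the inner membrane. There, the PDH complex turns it into acetyl-CoA for the TCA cycle, whereas pyruvate carboxylase turns it into oxaloacetate, which refills the cycle and feeds glucose synthesis. The PDH complex is built from E1 (alpha and beta subunits), which decarboxylates pyruvate, E2, which passes the acetyl group to coenzyme A on a lipoyl arm, and E3, which reoxidizes that arm. PDH kinase switches the complex off by phosphorylating E1 alpha, and PDH phosphatase switches it on again. The study compared these transcriptomes to ask how dietary GlcNAc acts on the intestine and its stem cells.

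Reads on the tested genes ranged from 9281492 to 10326189 per library on GlcNAc and from 8839877 to 9838415 in control. The enterocyte markers, mostly digestive protease genes, summed to between 71119 and 78800 CPM (read counts scaled to a common library size) on GlcNAc and to between 85415 and 102197 CPM in control over 13 genes, so that the groups did not overlap. Of the 13, 5 were lower with an adjusted p under 0.05 (limma, with Benjamini-Hochberg adjustment over the 7671 genes), and all 5 encode proteases. Most of the sum came from Jon65Aiv, Jon65Aiii and alphaTry. Their means were 26799, 19302 and 19115 CPM on GlcNAc and 34328, 24204 and 21651 CPM in control. None of these passed (adjusted p = 0.239, 0.245 and 0.527, limma). The non-protease markers nub (log2 fold change 0.21, adjusted p = 0.203), Amy-d (0.29, adjusted p = 0.41) and Myo31DF (-0.22, adjusted p = 0.24) did not pass. Of all genes, 8.75% were higher and 6.6% were lower at this threshold. The 9 enteroendocrine hormone genes summed to 323 to 366 CPM on GlcNAc and 274 to 343 CPM in control, with 3 higher past this threshold. The 6 progenitor markers summed to 129 to 165 CPM on GlcNAc and 127 to 150 CPM in control, with 0 past the threshold in limma, 0 at an unadjusted p under 0.05. The 12 visceral muscle genes summed to 1022 to 1424 CPM on GlcNAc and 1175 to 1646 CPM in control, with 1 lower past the threshold. The 3 fat body genes with a row (Yp1, Yp3 and apolpp), which mark tissue carried over in dissection, summed to 101.6 to 333.7 CPM on GlcNAc and 23.5 to 651 CPM in control, with the highest sum in control replicate 2. The only ovary marker with a row, otu, had at most 1.49 CPM on GlcNAc and 1.84 CPM in control. The only Malpighian tubule marker with a row, NaPi-T, had 2.34 to 9.82 CPM on GlcNAc and 2.03 to 2.84 CPM in control.

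Dietary GlcNAc was accompanied by more transcript for lactate dehydrogenase and by less for the catalytic core of PDH, the E3 subunit and PDH kinase. Of the 9 genes, 1 was higher and 5 were lower on GlcNAc at this threshold, and 3 did not pass. Over all genes, 15.3% passed this threshold, 8.75% as higher and 6.6% as lower. The same 6 genes were those whose groups did not overlap, 1 with every GlcNAc value above and 5 with every GlcNAc value below the control range, as was the case for 20.5% of all genes, 11.2% as higher and 9.24% as lower. The median log2 fold change was -0.28 over the 9 genes and 0.01 over all genes. In whole intestines, fewer cells of a type and less RNA per cell cannot be told apart, and the part of the marker shifts given above in these changes was not tested.

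**Figure D1:**
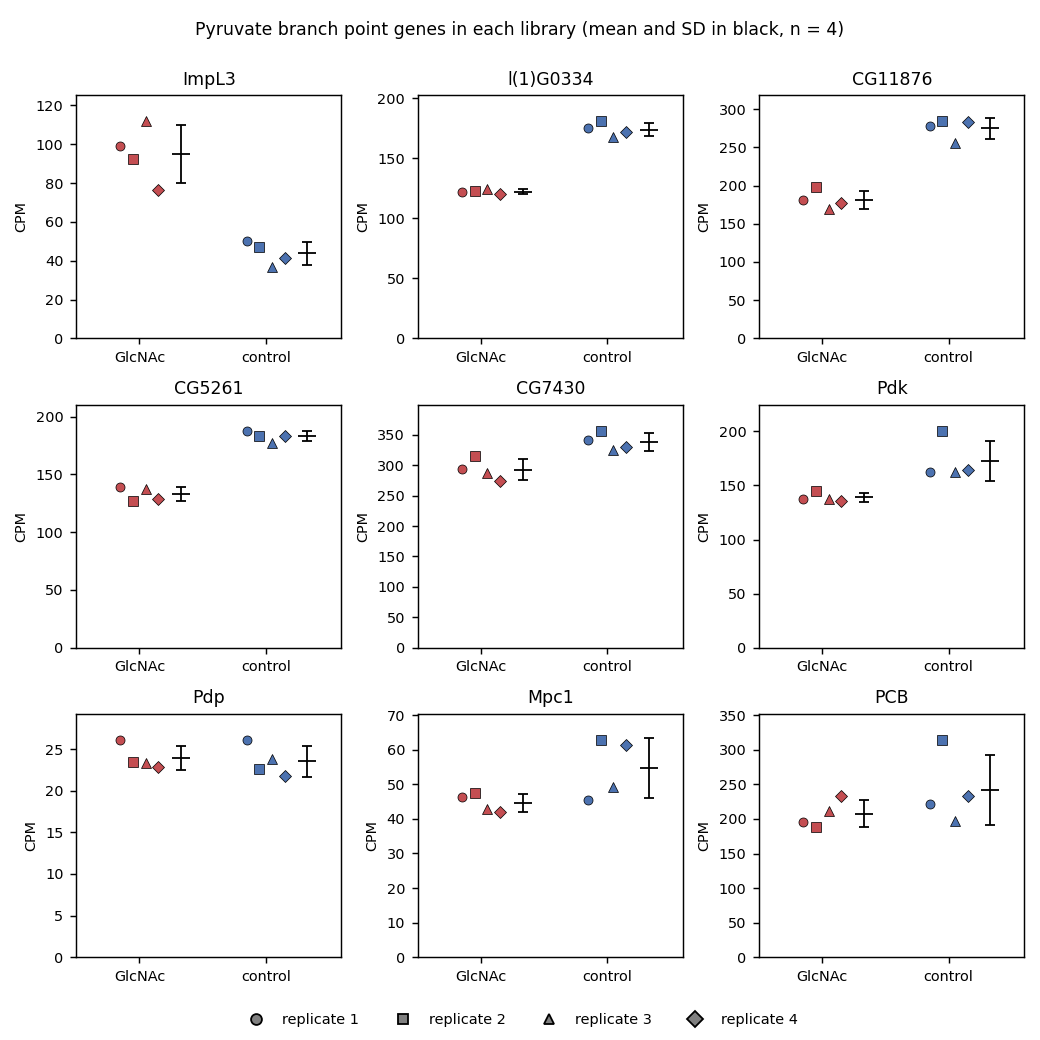
Level of each of the 9 genes in CPM (vertical axes, starting at 0) in the 4 GlcNAc libraries (left, red) and the 4 control libraries (right, blue), with the marker shape giving the replicate number and the black bars the mean and SD. The GlcNAc values of ImpL3 all lay above the control range, those of l(1)G0334, CG11876, CG5261, CG7430 and Pdk all lay below it, and Pdp, Mpc1 and PCB overlapped.

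ImpL3 (FBgn0001258), also called Ldh, encodes the lactate dehydrogenase of the fly and lies on the minus strand of chromosome 3L from 6259105 to 6262694 (BDGP6, 4 transcripts). It was at 99.1, 92.5, 112 and 76.2 CPM in GlcNAc replicates 1 to 4, against 49.9, 47.0, 36.8 and 41.2 CPM in control replicates 1 to 4. The lowest GlcNAc library, replicate 4, was still well above the highest control library. The log2 fold change was 1.11 (95% interval 0.83 to 1.39, adjusted p = 0.000352 from limma), which placed ImpL3 at rank 137 of 7671 from the largest increase. It was also the most variable of the 6 genes that passed on GlcNAc, with an SD of 15.6% of the mean on GlcNAc and 13.4% in control (n = 4).

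The 3 genes of the PDH core fell together and by similar amounts. The E1 alpha gene l(1)G0334 (FBgn0028325, also Pdha, chromosome X from 4702284 to 4705265, plus strand) had 122, 123, 125 and 119.9 CPM on GlcNAc, against 176, 181, 168 and 172 CPM in control. The 4 GlcNAc libraries were nearly identical, with an SD of 1.64% of the mean, and the groups were far apart. On GlcNAc it fell by 0.51 on the log2 scale (95% interval -0.62 to -0.40, adjusted p = 0.000154).

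The E1 beta gene CG11876 (FBgn0039635, also Pdhb, chromosome 3R from 29113071 to 29116197, plus strand) had 181, 198, 169 and 177 CPM on GlcNAc, against 278, 284, 255 and 283 CPM in control. Its fall was the largest among the 9 genes, at -0.60 on the log2 scale (95% interval -0.75 to -0.46, adjusted p = 0.000269), and even the highest GlcNAc library lay far under the lowest control library. The E2 gene CG5261 (chromosome 2L from 7426866 to 7430329, plus strand), which encodes the acetyltransferase of the complex, had 139, 127, 137 and 129 CPM on GlcNAc, against 188, 183, 177 and 184 CPM in control. Its log2 fold change was -0.46 (95% interval -0.58 to -0.34, adjusted p = 0.000419), with no overlap between the groups. For ImpL3, l(1)G0334, CG11876 and CG5261, the adjusted p stayed at or under 0.00302 in all 17 alternative fits.

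CG7430 (FBgn0036762) encodes E3, dihydrolipoyl dehydrogenase, which PDH shares with the 2-oxoglutarate and branched-chain dehydrogenases and with glycine cleavage, and it lies on chromosome 3L from 17846916 to 17849601 on the plus strand. It had 293, 316, 288 and 275 CPM on GlcNAc, against 341, 357, 324 and 331 CPM in control. The highest GlcNAc library, replicate 2, was only just below the lowest control library, replicate 3. The log2 fold change was -0.21 (95% interval -0.35 to -0.07, adjusted p = 0.0471), close to the threshold. The call was lost when libraries were scaled by their totals alone (-0.16, adjusted p = 0.116), with voom on recovered reads (0.0543), without the variance trend (0.0835), and when any single library other than GlcNAc replicate 2 was left out (0.0603 to 0.137).

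**Figure D2:**
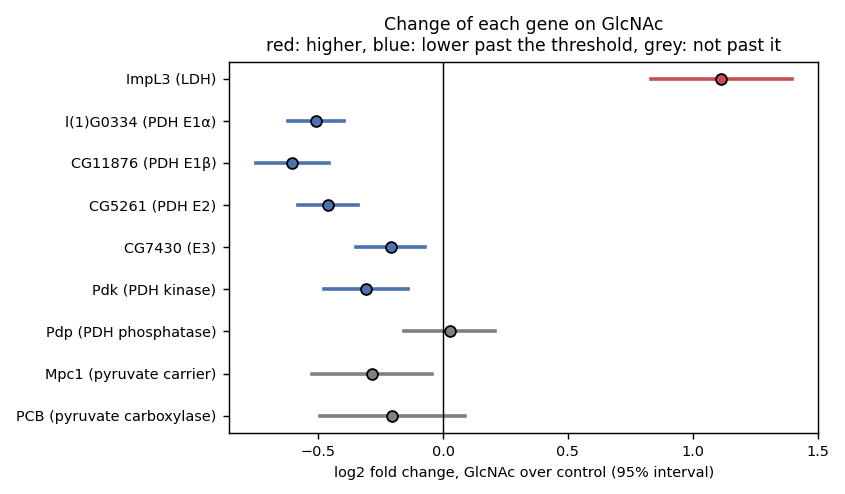
Log2 fold change of GlcNAc over control for the 9 genes (points) with 95% intervals (lines) from limma, in red where higher and blue where lower with an adjusted p under 0.05, and in grey otherwise. ImpL3 stood at 1.11, the PDH core genes between -0.60 and -0.46, CG7430 and Pdk at -0.21 and -0.31, and the intervals of Pdp and PCB crossed 0.

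Of the 2 enzymes that set the phosphorylation of E1 alpha, Pdk passed the test and Pdp did not, and the difference between them was compared as a ratio, given with the other ratios. Pdk (FBgn0017558, chromosome 2R from 9426439 to 9434638, plus strand), the kinase that inactivates the complex, had 137, 145, 138 and 136 CPM on GlcNAc, against 163, 201, 163 and 165 CPM in control. It fell by 0.31 on the log2 scale (95% interval -0.47 to -0.14, adjusted p = 0.021), and the groups did not overlap. Control replicate 2 stood apart from the other 3 control libraries, which were nearly equal. Without it the log2 fold change of Pdk was -0.23 and still passed (adjusted p = 0.0235), whereas the call was lost without GlcNAc replicate 1 (0.055) or GlcNAc replicate 4 (0.0608).

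Pdp (FBgn0029958, chromosome X from 7731779 to 7734651, minus strand), the phosphatase that reactivates the complex, had 26.1, 23.5, 23.4 and 22.9 CPM on GlcNAc, against 26.1, 22.6, 23.8 and 21.7 CPM in control. The groups covered the same range. Pdp had a log2 fold change of 0.03 (95% interval -0.16 to 0.21, adjusted p = 0.886), so that a fall of the size seen for l(1)G0334, CG11876 or CG5261 lay outside its interval. With 202 to 253 reads per library it was the least abundant of the 9 genes.

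Mpc1 (FBgn0038662, chromosome 3R from 18926996 to 18928659, minus strand) encodes a subunit of the mitochondrial pyruvate carrier, the entry gate for pyruvate oxidation. It had 46.3, 47.4, 42.7 and 42.1 CPM on GlcNAc, against 45.5, 62.8, 49.3 and 61.5 CPM in control. The GlcNAc libraries were close together, whereas control replicates 2 and 4 were high and control replicates 1 and 3 were near the GlcNAc level. The log2 fold change was -0.28 (95% interval -0.52 to -0.04) and did not pass over all genes (adjusted p = 0.115, exact permutation test p = 0.0857, two-sided). Without control replicate 1 it passed (-0.37, adjusted p = 0.0371), and in the other 16 alternative fits it did not.

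PCB (FBgn0027580, chromosome 2R from 9850703 to 9861543, minus strand) encodes pyruvate carboxylase, a biotin enzyme. It had 196, 189, 212 and 233 CPM on GlcNAc, against 222, 314, 197 and 233 CPM in control. The groups overlapped, and control replicate 2 was the highest library. It was also the highest for l(1)G0334, CG11876, CG7430, Pdk and Mpc1, and for the enterocyte and fat body marker sums. PCB had a log2 fold change of -0.20 (95% interval -0.49 to 0.09, adjusted p = 0.363), and without control replicate 2 it was -0.07 (adjusted p = 0.703). The part of carried-over fat body in the values of control replicate 2 was not tested. The 9 genes share no exonic bases with another gene of the same strand in the annotation, so that reads were not split or discarded there.

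Ratios of the members within a library do not depend on how libraries were scaled against each other. The 9 ratios were chosen by name with earlier results of these data known. They were tested two-sided by exact permutation of the libraries, with 70 assignments in all. Several have CG11876, whose fall was the largest among the members, as denominator, so the ratios are not independent of each other. The smallest p that this design allows is 0.0286, and it was reached by 5 ratios, which after adjustment over the 9 stood at 0.0514. None therefore passed 0.05 after adjustment, whatever their size, and 6 of 9 stood at an unadjusted p of 0.0571 or less.

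Within the PDH complex, the proportions of the core subunits shifted little, and their libraries overlapped between the groups. The ratio of E1 alpha to E1 beta (l(1)G0334 to CG11876) was 0.677 ± 0.0483 on GlcNAc and 0.633 ± 0.0212 in control (SD, n = 4), a log2 difference of 0.09 with a pooled SD of 0.0803 (exact permutation test p = 0.143, 0.161 adjusted). The ratio of E2 to E1 beta (CG5261 to CG11876) was 0.737 ± 0.0717 on GlcNAc and 0.665 ± 0.0239 in control (SD, n = 4), a log2 difference of 0.14 (exact permutation test p = 0.171, 0.171 adjusted). For E3, the ratio of CG7430 to CG11876 was 1.62, 1.59, 1.70 and 1.55 in GlcNAc libraries, against 1.23, 1.26, 1.27 and 1.17 in control libraries, a log2 difference of 0.39 (exact permutation test p = 0.0286, 0.0514 adjusted). With GlcNAc the ratio of CG5261 to CG7430 was lower in every library, at 0.456 ± 0.0357, against 0.541 ± 0.0193 in control (SD, n = 4), a log2 difference of -0.25 (exact permutation test p = 0.0286, 0.0514 adjusted).

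For the regulators, the ratio of kinase to phosphatase transcript (Pdk to Pdp) was 5.27, 6.17, 5.89 and 5.93 in GlcNAc libraries, against 6.23, 8.86, 6.85 and 7.56 in control libraries. The groups were separated by a narrow gap, and the log2 difference was -0.33 (exact permutation test p = 0.0286, 0.0514 adjusted). Set against its substrate, Pdk had a ratio to l(1)G0334 of 1.14 ± 0.0333 on GlcNAc, against 0.991 ± 0.0812 in control (SD, n = 4). This log2 difference of 0.20 had an exact permutation p of 0.0571 (0.0857 adjusted), with 1 control library, replicate 2, inside the GlcNAc range.

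**Figure D3:**
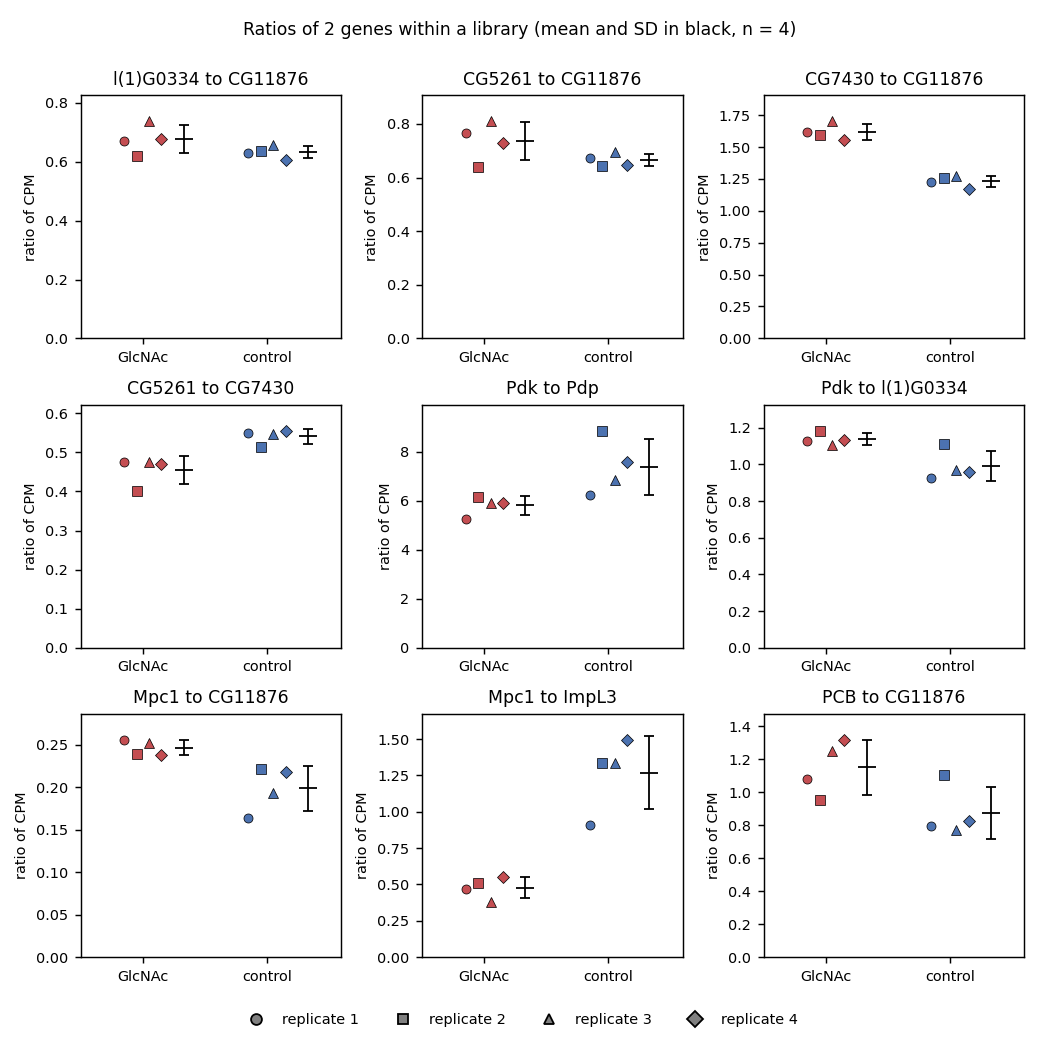
Ratio of the CPM of 2 genes in the same library (vertical axes, starting at 0) for the 4 GlcNAc libraries (left, red) and the 4 control libraries (right, blue), with the mean and SD in black and the marker shape giving the replicate number. The groups were apart for CG7430 to CG11876, CG5261 to CG7430, Pdk to Pdp, Mpc1 to CG11876 and Mpc1 to ImpL3, and overlapped for the other 4 ratios.

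The carrier was set against both fates of pyruvate. The ratio of Mpc1 to ImpL3 was 0.468, 0.513, 0.383 and 0.553 in GlcNAc libraries, against 0.910, 1.34, 1.34 and 1.49 in control libraries, a log2 difference of -1.40 (exact permutation test p = 0.0286, 0.0514 adjusted). The ratio of Mpc1 to CG11876 was 0.246 ± 0.00887 on GlcNAc and 0.199 ± 0.0267 in control (SD, n = 4), a log2 difference of 0.32 (exact permutation test p = 0.0286, 0.0514 adjusted). PCB relative to CG11876, the anaplerotic against the oxidative route, was 1.08, 0.953, 1.25 and 1.32 in GlcNAc libraries, against 0.797, 1.11, 0.770 and 0.824 in control libraries. Only control replicate 2 lay inside the GlcNAc range, and the log2 difference of 0.40 was not past the threshold (exact permutation test p = 0.0857, 0.11 adjusted).

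Levels of different genes were compared per kilobase of annotated exon, as CPM per kb. E3 was the most abundant transcript in both groups, at 130.01 ± 7.57 CPM per kb on GlcNAc and 150.2 ± 6.27 in control (SD, n = 4), followed by E1 beta, at 88.9 ± 5.94 on GlcNAc and 135 ± 6.64 in control. E1 alpha and E2 came next, with overlapping libraries on GlcNAc (56.9 ± 0.931 and 54.3 ± 2.42 CPM per kb) and separate ones in control (80.9 ± 2.55 and 74.6 ± 1.74 CPM per kb). ImpL3 was number 5 in the order of the 9 on GlcNAc, at 48.9 ± 7.62 CPM per kb, and number 8 in control, at 22.5 ± 3.02 CPM per kb. On GlcNAc its libraries overlapped those of its neighbours in the order, CG5261 above and Pdk below, while in control they lay apart from those of Mpc1 above and Pdp below. Pdk (44.0 ± 1.31 CPM per kb on GlcNAc, 54.6 ± 5.89 in control), PCB (43.7 ± 4.12 on GlcNAc, 50.9 ± 10.7 in control) and Mpc1 (38.7 ± 2.25 on GlcNAc, 47.4 ± 7.53 in control) followed each other with overlapping libraries in both groups. Pdp was the last, at 11.05 ± 0.656 CPM per kb on GlcNAc and 10.9 ± 0.865 in control. Per kilobase of coding sequence, ImpL3 again was number 5 on GlcNAc and number 8 in control, whereas Mpc1, with its short reading frame, was number 2 on GlcNAc and number 3 in control.

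The genes around the branch point were taken from lists of its other enzymes, carriers and regulators. Of 38 such genes with a row, 2 were higher and 7 were lower with an adjusted p under 0.05 (limma), where 8.75% of all genes were higher and 6.6% were lower. The median log2 fold change was -0.04 over the 38 genes and 0.01 over all genes. The 2 genes on the acetyl-CoA side moved in opposite directions. ATPCL, the ATP citrate lyase that makes cytosolic acetyl-CoA, was at 344 ± 5.12 CPM on GlcNAc and 158 ± 30.1 CPM in control (SD, n = 4), a log2 fold change of 1.14 (adjusted p = 0.000166). Citrate synthase (kdn), which takes mitochondrial acetyl-CoA into the TCA cycle, had a log2 fold change of -0.44 (adjusted p = 0.0145). Of the genes listed for the glycerol phosphate shuttle, the other main route by which flies reoxidize cytosolic NADH, 2 had a row. Both went down while ImpL3 went up. Gpdh had 299 ± 35.6 CPM on GlcNAc and 415 ± 32.4 CPM in control, and Gpo-1 had 118 ± 14.4 CPM on GlcNAc and 166 ± 11.1 CPM in control (SD, n = 4). Their log2 fold changes were -0.48 (adjusted p = 0.00686) and -0.50 (adjusted p = 0.00396), and neither call was lost in any of the 17 alternative fits.

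Among the sources and other fates of pyruvate, 8 genes were tested, and 1 of them passed, where 15.3% of all genes did. The lower gene was Mdh2, the mitochondrial malate dehydrogenase, at 436 ± 17.5 CPM on GlcNAc and 542 ± 26.5 CPM in control (SD, n = 4, log2 fold change -0.31, adjusted p = 0.00717). Pyruvate kinase (PyK), which makes pyruvate, had a log2 fold change of -0.03 (95% interval -0.22 to 0.17, adjusted p = 0.896), and the alanine aminotransferase gene CG1640 one of 0.09 (95% interval -0.07 to 0.25, adjusted p = 0.458). Malic enzyme (Men), which makes pyruvate from malate, had a log2 fold change of 0.52 (adjusted p = 0.0743), and passed without control replicate 2 (0.0144), with library totals (0.037) and with quantile normalization (0.047). The 2 other carrier genes with a row, CG9396 and CG9399, had log2 fold changes of -0.42 (adjusted p = 0.207) and -0.69 (adjusted p = 0.197). They had 40.4 ± 13.9 and 2.54 ± 1.28 CPM on GlcNAc and 52.6 ± 8.85 and 3.88 ± 0.956 CPM in control (SD, n = 4). CG9396 passed without GlcNAc replicate 2 (-0.64, adjusted p = 0.00822), and CG9399 without GlcNAc replicate 3 (-0.99, adjusted p = 0.0318). Of the 3 monocarboxylate transporter genes with a row, kar was lower (-0.44, adjusted p = 0.0153). The others, CG13907 (0.25, adjusted p = 0.0888) and out (0.10, adjusted p = 0.599), did not pass. CG13907 passed with library totals (0.0265) and without control replicate 2 (0.0234).

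**Figure D4:**
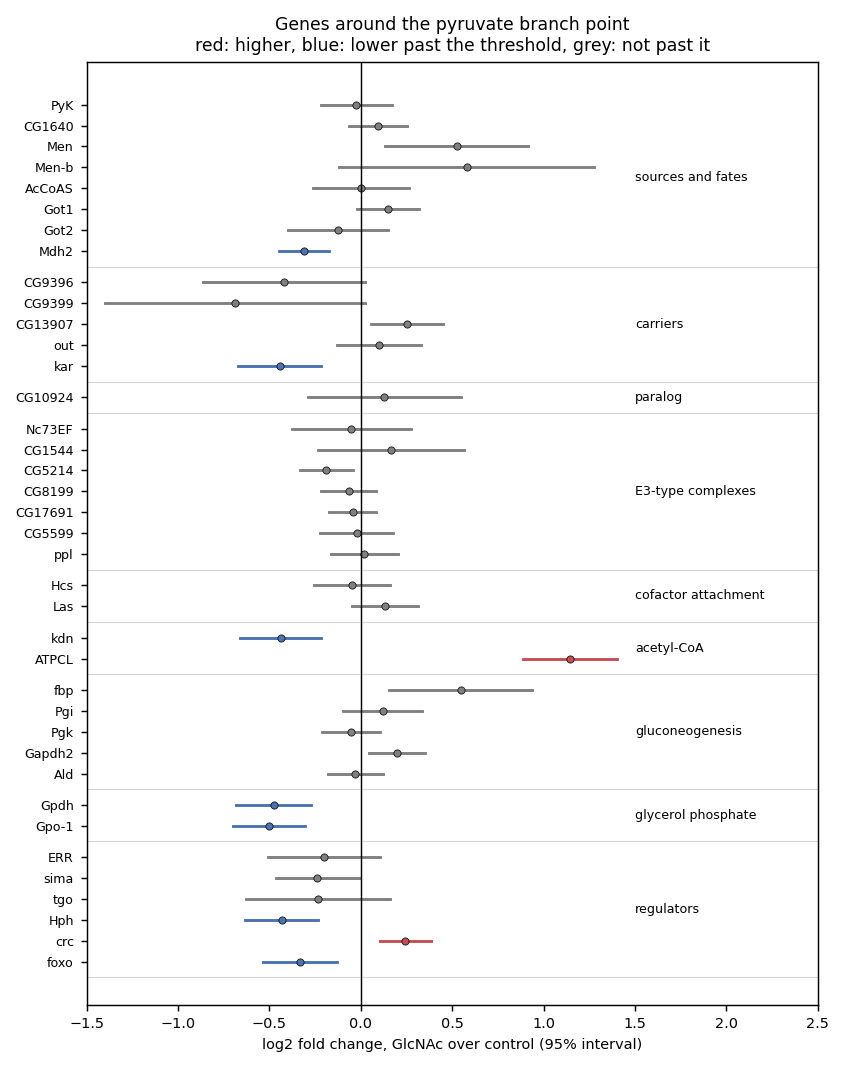
Log2 fold change of GlcNAc over control with 95% intervals from limma for 38 genes around the pyruvate branch point, grouped by role, in red where higher and blue where lower with an adjusted p under 0.05 and in grey otherwise. ATPCL (1.14) and crc (0.24) were higher, and Mdh2, kar, kdn, Gpdh, Gpo-1, Hph and foxo were lower, between -0.50 and -0.31.

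Among genes of other dehydrogenase complexes or of glycine cleavage, which use E3 or its lipoyl chemistry, 7 were tested. Of these, 0 passed the threshold in limma in either direction, where 15.3% of all genes did, and 0 with voom on recovered reads. So few genes do not set 0 apart from that share. The median log2 fold change of the 7 was -0.04. At an unadjusted p under 0.05 there was 1, CG5214, the E2 of 2-oxoglutarate dehydrogenase, which had a log2 fold change of -0.19 (95% interval -0.33 to -0.04, adjusted p = 0.0804) and passed without GlcNAc replicate 2 (0.0494). The branched-chain genes CG8199, CG17691 and CG5599 had log2 fold changes of -0.07, -0.04 and -0.02, and the lower limits of their 95% intervals, at -0.22, -0.17 and -0.22, lay above the values of the PDH core genes. The main 2-oxoglutarate dehydrogenase gene, Nc73EF, was more variable, with a log2 fold change of -0.05 (95% interval -0.38 to 0.27). The difference between these genes and the PDH genes was not itself tested. The lipoate synthase gene Las (0.13, adjusted p = 0.34) and the biotin ligase gene Hcs (-0.05, adjusted p = 0.791), which equip E2 and pyruvate carboxylase with their cofactors, did not pass.

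On the side of glucose synthesis, where Pepck was not analysed here, its paralog CG10924 was low, at 5.17 ± 0.999 CPM on GlcNAc and 4.72 ± 0.901 CPM in control (SD, n = 4, adjusted p = 0.718). Of 5 further genes of gluconeogenesis, 4 of which also serve glycolysis, 0 passed the threshold in either direction. This held with limma on the deposited values, where 15.3% of all genes passed, and with voom on recovered reads. So few genes do not set 0 apart from that share. At an unadjusted p under 0.05 there were 2, fructose-1,6-bisphosphatase (fbp), with a log2 fold change of 0.55 (adjusted p = 0.0646), and Gapdh2, with 0.20 (adjusted p = 0.0849). With library totals both passed (0.0286 and 0.0356), and fbp also passed without control replicate 2 (0.0184).

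The transcription factors tied in flies to lactate dehydrogenase or Pepck, with the prolyl hydroxylase Hph, were 6 genes, of which 1 was higher and 2 were lower. Of all genes, 8.75% were higher and 6.6% were lower. ERR, a nuclear receptor that activates the lactate dehydrogenase gene in fly larvae, had 65.0 ± 12.04 CPM on GlcNAc and 74.4 ± 10.4 CPM in control (SD, n = 4, log2 fold change -0.20, adjusted p = 0.396). The hypoxia factor sima had a log2 fold change of -0.24 (adjusted p = 0.158), and Hph, the enzyme that marks Sima for degradation, one of -0.43 (adjusted p = 0.00907). The ATF4 homolog crc was higher, at 851 ± 30.1 CPM on GlcNAc and 719 ± 32.0 CPM in control (SD, n = 4, adjusted p = 0.0267). Of the exonic bases of crc, 73.5% are shared with another gene on the same strand in the annotation, so that its count is uncertain, and its call was lost without any of 5 single libraries (GlcNAc replicate 2, 3 or 4, control replicate 1 or 3, 0.0576 to 0.0704). foxo, a factor of the starvation response, was lower (-0.33, adjusted p = 0.0328), and its call was lost without any of 6 single libraries (0.0737 to 0.0919) and without the variance trend (0.0687).

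The genes whose pattern over the 8 libraries was closest to that of ImpL3, by the root mean square difference of log2 CPM after centring each gene on its mean, were CG32641 (0.12), CG12379 (0.14) and ATPCL (0.15), out of 6369 genes with a mean of at least 5 CPM. CG32641 was at 25.7 ± 2.04 CPM on GlcNAc and 11.4 ± 1.01 CPM in control, and CG12379 at 8.11 ± 1.37 CPM on GlcNAc and 4.17 ± 0.302 CPM in control (SD, n = 4). Closest to l(1)G0334 were UQCR-14 (0.05), which encodes a subunit of respiratory complex III, CG10472 (0.05) and the adenylate kinase gene Adk2 (0.06). UQCR-14 was at 214 ± 5.67 CPM on GlcNAc and 296 ± 21.1 CPM in control (SD, n = 4). CG10472 was far more abundant, at 9418 ± 289 CPM on GlcNAc and 13469 ± 888 CPM in control (SD, n = 4). Adk2 was at 231 ± 13.0 CPM on GlcNAc and 336 ± 19.0 CPM in control (SD, n = 4). These genes were chosen for their likeness, so their levels are a description and nothing is read from a test of them here.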

How the data were processed

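Strand-specific libraries were sequenced on a HiSeq 2500 as single-end reads. The authors trimmed reads with Trimmomatic, mapped them with TopHat2 2.1.0 to FlyBase R6.10 and counted exonic reads with HTSeq, discarding alignments of quality below 10. Genes entered their table if 3 or more of 4 libraries of a condition exceeded 1 CPM. They deposited log2 CPM for 7671 genes, with an offset of 0.5 read and scaled library sizes. The deposited table also holds the authors' fold changes, test statistics (a score without fixed range) and p-values, which were not used.

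Groups were compared on the deposited log2 CPM by limma (version 3.58.1, in R 4.3.3) with lmFit and a trended eBayes, condition being the only term, with Benjamini-Hochberg adjustment over all genes and a threshold of 0.05. The fold changes understate those of genes with few reads. CPM values are 2 to the power of the deposited values. Whole reads were recovered for 100% of 61368 values within 0.1 read, and entered only the alternatives that needed them. P-values measure the spread between the 4 independent samples of a group. Coordinates and lengths are those of Ensembl release 115 (BDGP6), which has the release 6 coordinates. The fit was run on simulated data whose changed genes moved by more than every member but ImpL3. The outcome of that run is not given here and does not cover smaller changes. The genes, lists and ratios were chosen with earlier results of these data known. The genes named are all members, genes of the neighbour lists, and the 3 genes closest in pattern to ImpL3 and to l(1)G0334. Promoter and protein sequences were not used here. The alternatives were other scalings, pseudocounts of 2 and 0.1 CPM, a filter of 10 CPM, no trend, voom, a replicate block, and each library left out in turn.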

Additional observations from a re-analysis of the deposited data

Results flagged for a closer look

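Of 36 groups of 4 libraries examined for a library far from the other 3 (the 9 genes and the 9 ratios, on GlcNAc and in control), 3 held one, where chance gives about 1 in 20. In control, Pdk was at 201 CPM in replicate 2, and the gap to the next library was 0.951 of the whole range. In the same library, the ratio of PCB to CG11876 was 1.11, with a gap of 0.84 of the range. In GlcNAc replicate 2 the ratio of CG5261 to CG7430 was 0.402, with a gap of 0.916 of the range.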

How the results depend on the processing

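ImpL3, l(1)G0334, CG11876 and CG5261 kept their direction and their call in all 17 alternatives, with log2 fold changes of 1.03 to 1.21, -0.53 to -0.45, -0.65 to -0.55 and -0.48 to -0.41. The number of members past the threshold was 1 higher throughout, and 4 or 5 lower, with a range of 3 to 5 when single libraries were left out. The log2 fold change of Pdp ranged from -0.015 to 0.076 when single libraries were left out, and was negative without GlcNAc replicate 1 (-0.015) and without control replicate 4 (-0.011). Of the 38 neighbour genes, 6 were higher with library totals and 1 to 5 when single libraries were left out, against 2 as reported. With the replicate number as a block, 5 neighbour genes were higher and 9 lower, against 2 and 7. The 5 added were Men (adjusted p = 0.00593), fbp (0.0101) and CG13907 (0.0496) as higher, and CG9396 (0.0422) and sima (0.029) as lower (limma). The block changed no call among the members, and moved the number of all genes past the threshold to 1324, against 1177. The deviations of same-numbered libraries from their group means correlated at 0.21, 0.40, 0.15 and -0.06 for numbers 1 to 4. Between libraries of different numbers the correlations ran from -0.29 to 0.18. These values do not settle whether the numbers pair the samples. The paper states that control and GlcNAc samples were taken in parallel, without saying which belong together. No label ties the numbers to a shared batch, so the main fit was unpaired and the block was kept as an alternative. The 9 ratios kept their direction with any single library left out, and an exact paired test with 4 pairs cannot go below p = 0.125. edgeR and DESeq2, planned for recovered reads, were not run, while voom was run on those reads. Among the members, depth was lowest for Pdp, at 202 to 253 reads per library.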
